A study of Mus musculus with 3 samples.

Results

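Transcripts of 8 genes that encode elastin and proteins of its microfibril scaffold were described across the cell classes of the mouse flexor digitorum longus (FDL) tendon by single-cell RNA sequencing (scRNAseq). The genes were *Eln* (ENSMUSG00000029675), *Fbn1* (ENSMUSG00000027204), *Fbn2* (ENSMUSG00000024598), *Mfap2* (ENSMUSG00000060572), *Mfap4* (ENSMUSG00000042436), *Mfap5* (ENSMUSG00000030116), *Emilin1* (ENSMUSG00000029163) and *Emilin2* (ENSMUSG00000024053). They were chosen by symbol, each symbol was found once, and together they are 8 of the 32285 genes counted.

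Elastic fibres let a tissue stretch and recoil, and they are built from a core of crosslinked elastin on a sheath of microfibrils. Microfibrils are strings of fibrillin, of which fibrillin-1 is the main adult form and fibrillin-2 is best known from development. The microfibril-associated glycoproteins MAGP-1 (*Mfap2*) and MAGP-2 (*Mfap5*) bind fibrillin, microfibril-associated protein 4 (*Mfap4*) binds both elastin and fibrillin, and the EMILINs are glycoproteins found where elastin and microfibrils meet. In tendon, elastic fibres lie around the cells, between the collagen bundles and in the outer layers.

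There were 3 libraries, 1 per group, each made from 16 FDL tendons pooled from male and female mice, with C57BL/6J as the labelled strain of all 3. The 6 M WT library came from Scx-Cre-; DTR F/+ littermates and the 6 M DTR library from Scx-Cre+; DTR F/+ mice, in which Cre under the Scleraxis promoter places the diphtheria toxin (DT) receptor on Scleraxis-lineage cells. Both groups received 5 daily injections of DT, and their labels give an age of 3 M, whereas the methods of the study describe injections at 3 months and tendons taken at 6 months. The 21 M B6 library came from mice labelled C57/Bl6 that were given no DT, and its digestion lasted 90 minutes as in 6 M DTR, against 120 minutes in 6 M WT. Age, genotype, DT and digestion time therefore cannot be told apart between 21 M B6 and 6 M WT. Neither can depletion and digestion time between 6 M DTR and 6 M WT, nor age, genotype, DT and depletion between 21 M B6 and 6 M DTR. The libraries are called WT, DTR and B6 from here on, the first pair being the young ones, and values given in threes follow that order. With 1 library per group there was no replicate and no difference was tested, and all intervals are exact 95% intervals for counting error only.

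The filters kept 4798 to 8357 cells per library with a median of 12328 to 13008 unique molecular identifiers (UMIs, counted transcript molecules) per cell, and pairs of libraries shared 13 to 15 kept cell barcodes. More barcodes of B6 (56.5%) and DTR (43.1%) than of WT (27.6%) lay over the mitochondrial limit of 10%. Clusters were named from marker genes, and the 8 genes were left out of the clustering. Tenocyte-like cells numbered 5402 in WT, 2671 in DTR and 1040 in B6, which is 64.6%, 40.8% and 21.7% of kept cells. Epitenon-like cells, a fibroblast class of the tendon sheath and surface, numbered 1653, 1770 and 2725. *Tnmd*, which encodes the tendon protein tenomodulin, stood at 455 to 636 CPM (the counts of a gene over all counts of that class and library, on a fixed scale) in tenocyte-like and at 8.8 to 41.5 CPM in epitenon-like cells, in keeping with the names. The 9 tenocyte markers summed to 16677, 20012 and 16518 CPM in tenocyte-like and 2796, 3911 and 1364 CPM in epitenon-like cells. The 9 epitenon markers separated the classes less, with 7581, 7624 and 7131 CPM in epitenon-like against 4755, 4568 and 4430 CPM in tenocyte-like cells, where the *Serpinb7*- and *Slurp1*-led sub-cluster (27.2% to 32.4% of the class) raised 4 of them and met the rule for an epitenon-like name. Among cells whose sex could be called, females were the majority in WT (5104 against 1991) and in B6 (2164 against 1711) and the minority in DTR (2145 against 3101).

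Each gene had its own distribution over the cell classes. *Fbn1* and *Mfap5* were highest in epitenon-like cells in all 3 libraries, and no other gene of the group had the same highest class in all 3. This count of 2 became 4 or 5 under 6 alternative settings, and some classes lay within counting error of each other, such as mural-like (16.5 CPM from 9 UMIs) and tenocyte-like cells (16.2 CPM) for *Emilin1* in B6. *Eln* was highest in endothelial-like or mural-like cells, *Emilin2* in epitenon-like or macrophage-like cells, and *Emilin1* and *Mfap4* in tenocyte-like cells of both young libraries. Counting a gene as called between classes where the ratio passed 2-fold in one direction in each of the 3 libraries, among genes with at least 5 CPM in either class in each library, 4 of 6 tested genes were higher in epitenon-like than in tenocyte-like cells (*Eln*, *Fbn1*, *Mfap5* and *Emilin2*) and none was lower, against 6.19% of all tested genes higher and 2.77% lower. The *Eln* ratio was 3.90 in WT, 2.08 (1.70 to 2.56) in DTR and 6.13 in B6. The DTR ratio of *Eln* ran from 1.197 to 2.385 over the settings tried, so its call is not firm. *Emilin1* lay lower in epitenon-like cells in each library but missed 2-fold in DTR, with ratios of 0.348, 0.509 and 0.452 in WT, DTR and B6.

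**Figure D1:**
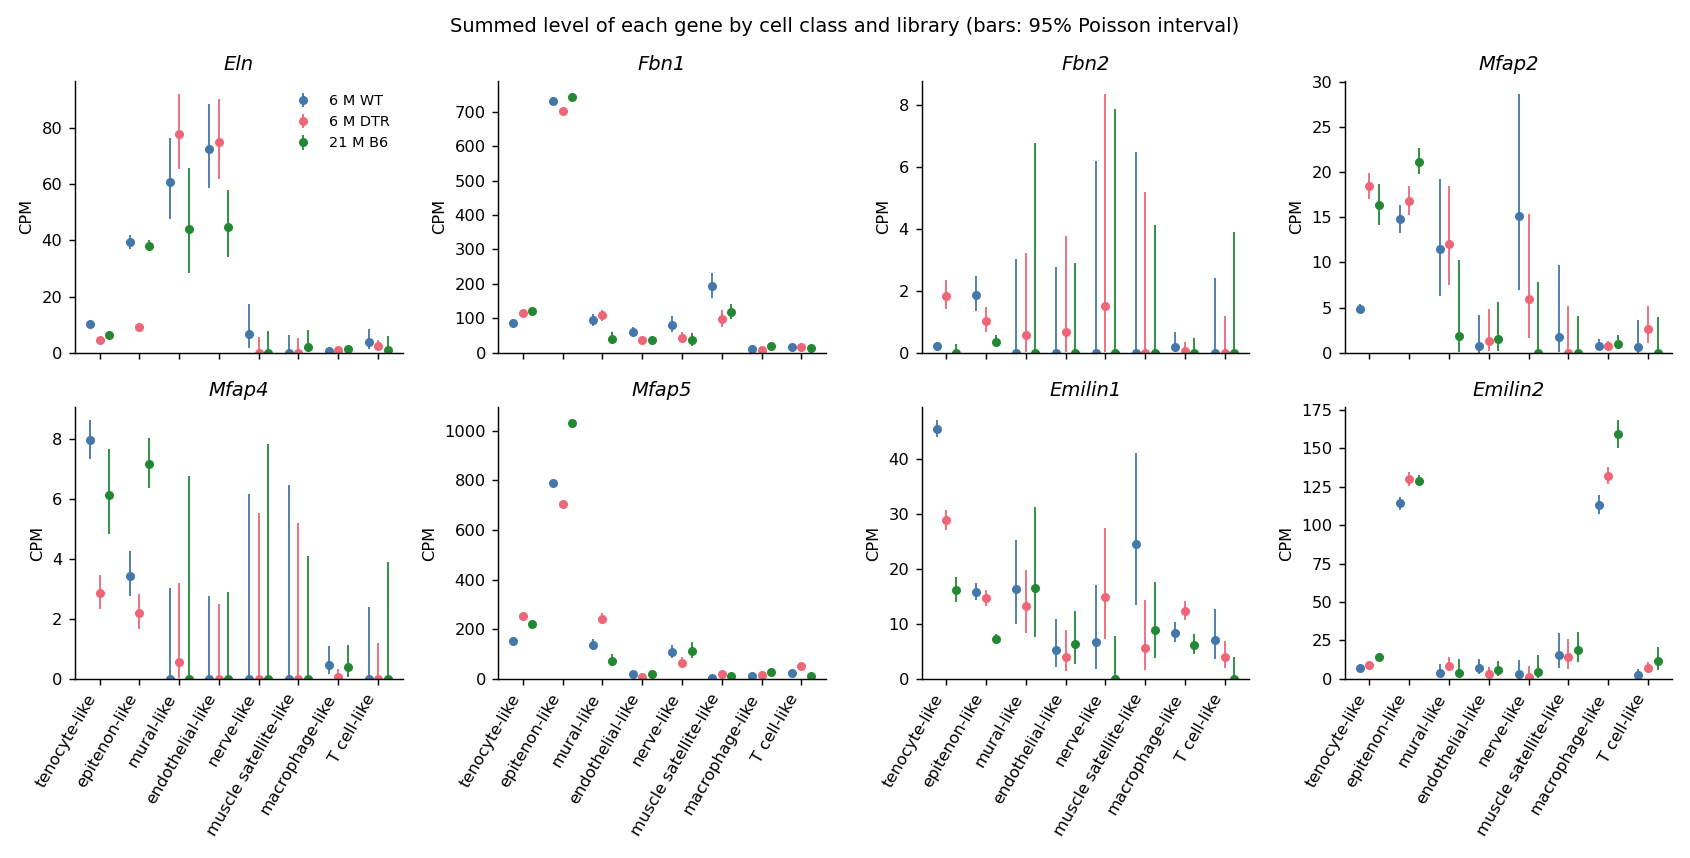
Level of each of the 8 genes in CPM (y axis, linear, a separate scale for each gene) in 8 cell classes (x axis) and 3 libraries (colours), with points at the summed level and bars at the exact 95% Poisson interval for counting error. *Fbn1* and *Mfap5* stand highest in epitenon-like cells in every library, *Emilin2* is high in both epitenon-like and macrophage-like cells, and *Eln* in epitenon-like cells is low in DTR alone.

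*Eln* encodes tropoelastin, the soluble precursor that is crosslinked into elastin. In endothelial-like cells its level was 72.4 CPM (58.6 to 88.4) in WT, 75.0 CPM (61.7 to 90.4) in DTR and 44.7 CPM (33.9 to 58.0) in B6. In mural-like cells, the pericytes and smooth muscle of vessels, it was 60.7 CPM (47.7 to 76.2), 77.8 CPM (65.2 to 92.1) and 44.1 CPM (28.2 to 65.6). The intervals of these vascular classes overlapped in every library, so no order is read between them. Both were above tenocyte-like cells everywhere, by 7.18-, 16.7- and 7.19-fold for endothelial-like and by 6.02-, 17.3- and 7.08-fold for mural-like cells. *Eln* was the only gene of the group called higher in mural-like than in tenocyte-like cells (1 of 6 tested, against 13.3% of all tested genes higher and 6.81% lower). Between endothelial-like and tenocyte-like cells *Eln* was called higher and *Mfap5* and *Emilin1* lower (5 tested, against 13.5% higher and 9.33% lower). Mural transcripts were fewer in the endothelial-like cells, though most frequent in those of B6: *Myh11*, the smooth muscle myosin, stood at 3.8, 3.4 and 37.7 CPM there against 1508, 909.6 and 1588 CPM in mural-like cells, and the pericyte gene *Rgs5* at 446, 551 and 1999 CPM against 7807, 10153 and 4509 CPM. Their part in the endothelial-like *Eln* level was not tested.

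Epitenon-like cells came next, though in B6 their interval overlapped those of both vascular classes. In epitenon-like cells *Eln* stood at 39.4 CPM (36.9 to 41.9, from 957 UMIs) in WT, at 9.35 CPM (8.20 to 10.6, from 239 UMIs) in DTR and at 38.1 CPM (36.2 to 40.1, from 1533 UMIs) in B6. The DTR library was the low one, and the intervals of WT and B6 overlapped. The ratio of DTR to WT was 0.237 (0.205 to 0.274), that of B6 to WT was 0.968 (0.893 to 1.05) and that of B6 to DTR was 4.08 (3.56 to 4.69). Calling a ratio between libraries where it passed 2-fold among genes with at least 5 CPM in either library, *Eln* was the 1 call among the 6 genes tested in epitenon-like cells between DTR and WT, where 2.52% of all tested genes were called, 0.751% upward and 1.77% downward. DTR shared the digestion time of 90 minutes with B6 and not with WT, and the part of digestion in these ratios was not tested. Among female cells the ratio of DTR to WT was 0.24 and among male cells 0.19, and over 13 settings, the reported one included, it ran from 0.191 to 0.263. The ratio of B6 to WT was 0.90 in female and 0.73 in male cells, and it ran from 0.728 to 1.21 over the same number of settings.

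The share of cells with an *Eln* UMI moved the same way. After every cell was thinned to 2000 UMIs, 5.28% of epitenon-like cells held *Eln* in WT, 2.04% in DTR and 5.32% in B6. Macrophage-like cells, taken as a background for transcripts from broken cells, held it in 0.149%, 0% (upper bound 0.315%) and 0.189% of cells at similar median depths (13328.5 to 15627 against 14192 to 14603 UMIs).

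A small share of cells carried much of the *Eln* signal. Before thinning, 260 epitenon-like cells of WT (15.7%), 108 of DTR (6.10%) and 524 of B6 (19.2%) held any, and the richest single cell held 146, 23 and 108 UMIs. The 1% of epitenon-like cells with the most *Eln* held 48.3%, 48.1% and 42.9% of its UMIs. Mural-like cells showed a flatter spread, with *Eln* in 25.3%, 34.2% and 32.1% of cells and no more than 7 UMIs in any of them. Leaving out the 1% of epitenon-like cells highest in *Eln* in each library moved the ratio of DTR to WT only to 0.25.

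Within the epitenon-like class, sub-clusters were made without the 8 genes or their partners and are called by their leading genes. *Eln* was at 71.6, 21.5 and 58.8 CPM in the *Nppc*- and *Prss12*-led sub-cluster, the highest value in each library. Only in WT did its interval stand clear of the others. In DTR it overlapped those of the *Mal*-led and *Saa3*-led sub-clusters and of the 10 *Reln*-led cells, which held no *Eln* UMI. In B6 it overlapped those of the *Mal*-led and *Spp1*-led sub-clusters. At a lower sub-cluster resolution the highest sub-cluster differed between libraries. In the largest sub-cluster, led by *Pi16* and *Dpp4*, it stood at 49.4, 4.65 and 25.7 CPM, a ratio of DTR to WT of 0.0941 (0.0684 to 0.127). The *Spp1*- and *Itgb4*-led sub-cluster, which raised 8 of the 9 tenocyte markers, showed 29.9, 4.19 and 51.7 CPM and a ratio of 0.140 (0.0837 to 0.225). The *Nppc*-led and *Saa3*-led sub-clusters were lower in DTR as well, with ratios of 0.301 (0.228 to 0.393) and 0.586 (0.348 to 0.955). In the *Col22a1*-led sub-cluster the ratio was 0.988 (0.541 to 1.83) and in the *Mal*-led one 1.14 (0.731 to 1.78), both with intervals that include 1. The DTR level was thus low in some epitenon-like sub-clusters and not in others, though whether those ratios differ between sub-clusters was not tested. In B6 the picture was mixed: against WT *Eln* was lower in the *Pi16*-led sub-cluster (0.521, 0.453 to 0.598) and higher in the *Spp1*-led (1.73, 1.39 to 2.17), *Saa3*-led (1.75, 1.33 to 2.33) and *Mal*-led (3.03, 2.11 to 4.45) sub-clusters. The sub-cluster ratios thus lay on both sides of the class ratio. Their intervals take each UMI as independent, whereas single epitenon-like cells held up to 146 *Eln* UMIs in WT and 108 in B6. Opposite differences between sub-clusters are therefore not established.

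**Figure D2:**
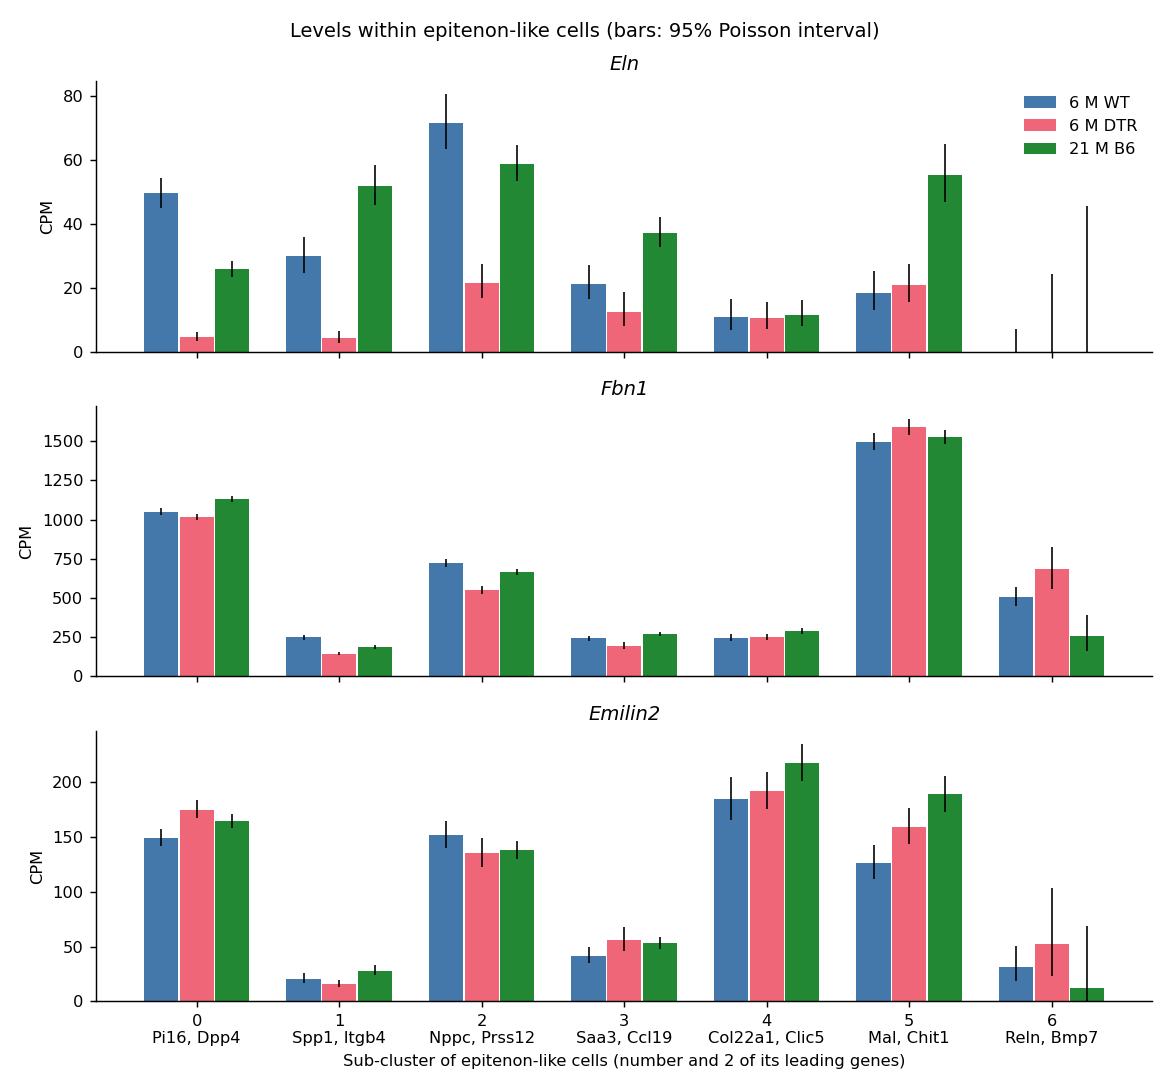
Levels of *Eln*, *Fbn1* and *Emilin2* in CPM (y axis, linear from 0) in the 7 sub-clusters of epitenon-like cells (x axis, named by 2 leading genes each) for the 3 libraries (colours), with bars at the summed level and error bars at the exact 95% Poisson interval. *Eln* is highest in the *Nppc*- and *Prss12*-led sub-cluster, whose interval overlaps those of other sub-clusters in DTR and B6. *Fbn1* is highest in the *Mal*- and *Chit1*-led one and *Emilin2* in the *Col22a1*- and *Clic5*-led one. The *Emilin2* interval of the latter overlaps that of the *Mal*-led one in DTR and B6 and that of the *Pi16*-led one in DTR. The DTR level of *Eln* in the *Pi16*- and *Dpp4*-led sub-cluster (4.65 CPM) is far below the 49.4 CPM of WT.

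In tenocyte-like cells, the main cells of the tendon body, *Eln* stood at 10.1 CPM (9.36 to 10.8) in WT, 4.48 CPM (3.81 to 5.24) in DTR and 6.22 CPM (4.91 to 7.77) in B6. The WT library was the highest. The intervals of the others overlapped, while the ratio of B6 to DTR was 1.39 (1.04 to 1.83) and ran from 0.863 to 1.73 over the settings tried. The ratio of DTR to WT was 0.445 (0.372 to 0.529), past 2-fold in female cells (0.39) but not in male cells (0.66), and that of B6 to WT was 0.617 (0.481 to 0.781), short of 2-fold. *Eln* was lower in DTR than in WT in each of the 4 large tenocyte-like sub-clusters, with ratios from 0.302 to 0.593. Against WT, B6 was lower in the *Gbp6*-led (0.320, 0.190 to 0.506) and haemoglobin-led (0.184, 0.0784 to 0.370) sub-clusters but higher in the *Tac1*- and *Mstn*-led one (1.78, 1.05 to 3.02). That last sub-cluster made up 3.74% of tenocyte-like cells in WT, 11.5% in DTR and 12.0% in B6, and without it the ratio of B6 to WT was 0.42.

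*Fbn1*, which encodes fibrillin-1, the backbone of adult microfibrils, marked the epitenon-like class at a nearly even level: 731 CPM (720 to 742) in WT, 702 CPM (691 to 712) in DTR and 743 CPM (735 to 752) in B6. The libraries lay within a ratio of 0.960 (0.940 to 0.980) for DTR and 1.02 (0.998 to 1.04) for B6 against WT. Tenocyte-like cells held 85.4 CPM (83.3 to 87.6), 116 CPM (112 to 120) and 121 CPM (115 to 128). Here WT was the lowest, with ratios to it of 1.36 (1.30 to 1.41) and 1.42 (1.34 to 1.51), both under 2-fold. The latter ran from 1.08 to 1.63 over the settings tried. WT was also lowest in the *Gbp6*-led (61.1, 72.9 and 81.6 CPM) and *Serpinb7*-led (110, 152 and 233 CPM) sub-clusters. It was not in the haemoglobin-led one, with 68.2 CPM (63.1 to 73.6), 103 CPM and 41.0 CPM (32.9 to 50.5). Nor was it in the *Tac1*- and *Mstn*-led one, with 155, 138 and 129 CPM. The level in epitenon-like cells was 8.56, 6.05 and 6.12 times that in tenocyte-like cells of the same library. After thinning, 52.9%, 48.7% and 52.5% of epitenon-like cells and 13.8%, 15.6% and 15.7% of tenocyte-like cells held an *Fbn1* UMI, against 2.84%, 1.45% and 2.08% of macrophage-like cells. Inside the epitenon-like class the range was wide: the *Mal*- and *Chit1*-led sub-cluster reached 1497, 1592 and 1526 CPM and the *Spp1*- and *Itgb4*-led one 250, 146 and 188 CPM. In mural-like cells *Fbn1* was 94.4 CPM (77.9 to 113) in WT and 108 CPM (93.4 to 125) in DTR, both above the 40.4 CPM (25.3 to 61.2, from 22 UMIs) of B6.

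*Fbn2*, which encodes fibrillin-2, was close to the limit of detection. Tenocyte-like cells held 16 UMIs in WT, 65 in DTR and 0 in B6. The levels were 0.221 CPM (0.126 to 0.359), 1.84 CPM (1.42 to 2.35) and 0 CPM. For B6 a floor of 3 counts of the class total would be 0.242 CPM, which is not an exact interval. *Fbn2* therefore never reached the 5 CPM needed for a call in that class. Most tenocyte-like *Fbn2* UMIs came from the *Tac1*- and *Mstn*-led sub-cluster, with 10 of the 16 in WT and 44 of the 65 in DTR. Epitenon-like cells held 45, 26 and 14 UMIs, and 42, 20 and 4 of these lay in the small *Reln*- and *Bmp7*-led sub-cluster of 37, 10 and 7 cells, where *Fbn2* stood at 78.5, 131 and 49.2 CPM and no *Eln* UMI was counted. The same sub-cluster held the highest *Mfap2* level of the class, at 103, 138 and 86.1 CPM from 55, 21 and 7 UMIs. In B6 its interval (34.6 to 177) overlapped that of the *Saa3*-led sub-cluster (43.0 CPM, 38.0 to 48.3). In every other named class *Fbn2* was counted at most 2 times per library.

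MAGP-1 and MAGP-2 are the small glycoproteins bound along fibrillin. *Mfap5*, for MAGP-2, was highest in epitenon-like cells, at 788 CPM (777 to 799) in WT, 705 CPM (695 to 715) in DTR and 1033 CPM (1023 to 1043) in B6. The B6 library was the high one, 1.31 times (1.29 to 1.33) the level of WT, and DTR the low one, 0.895 times (0.876 to 0.913). That order held in the *Pi16*-led (966, 822 and 1394 CPM) and *Spp1*-led (548, 430 and 684 CPM) sub-clusters. In the *Nppc*-led one B6 was below WT, with 1294, 1067 and 1022 CPM. DTR was above WT in the *Mal*-led (586, 882 and 1369 CPM) and *Saa3*-led (492, 581 and 603 CPM) ones. Most epitenon-like cells held the gene: 86.8%, 84.2% and 94.9% had at least 1 UMI before thinning and 60.2%, 56.0% and 68.4% after it. In tenocyte-like cells *Mfap5* stood at 154 CPM (151 to 157), 255 CPM (250 to 261) and 222 CPM (214 to 231). Here WT was the lowest, and DTR lay above B6 over all cells (B6 to DTR 0.870) and in male cells (0.71) but below it in female cells (1.11), with ratios to WT of 1.66 (1.61 to 1.70) for DTR and 1.44 (1.38 to 1.5) for B6, neither past 2-fold. The *Tac1*- and *Mstn*-led sub-cluster held the most in every library, at 284, 769 and 374 CPM, and its ratio of DTR to WT was 2.71 (2.51 to 2.93) against 1.21 to 1.40 in the other 3 large sub-clusters. Without that sub-cluster the class ratio of DTR to WT was 1.31.

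*Mfap2*, for MAGP-1, was the gene with the largest ratios to WT among the 7 tested in tenocyte-like cells when both sexes were pooled. The level was 4.86 CPM (4.37 to 5.40) in WT, 18.4 CPM (17.1 to 19.9) in DTR and 16.3 CPM (14.1 to 18.7) in B6. Both other libraries were above WT, by 3.79-fold (3.33 to 4.33) in DTR and 3.36-fold (2.81 to 4.00) in B6, and their own ratio was 0.885. Markers of other cells also differed within these tenocyte-like cells: the 6 myofibre markers summed to 60.2, 364 and 315 CPM and the 5 erythroid markers to 1173, 5204 and 985 CPM, and their part in the *Mfap2* ratios was not tested. After thinning, 0.944%, 4.31% and 2.60% of tenocyte-like cells held *Mfap2*, against 0.149% to 0.189% of macrophage-like cells. The sexes gave ratios of DTR to WT of 2.05 in females and 4.83 in males, and of B6 to WT of 4.77 and 2.32, all past 2-fold. Between B6 and DTR the direction turned with sex, at 2.33 in females and 0.48 in males. *Mfap2* was highest in the *Tac1*- and *Mstn*-led sub-cluster (29.6, 65.6 and 46.4 CPM), the one with the larger share of the class in DTR and B6. It was nonetheless higher in DTR than in WT inside each of the 4 large sub-clusters, by 2.1 to 4.31 times, and without the *Tac1*- and *Mstn*-led cells the class ratios were 3.37 and 3.03. In epitenon-like cells the level was 14.8, 16.8 and 21.2 CPM, with a ratio of B6 to WT of 1.43 (1.26 to 1.62) and of DTR to WT of 1.13 (0.983 to 1.31), so that *Mfap2* was 3.05 times higher in epitenon-like than in tenocyte-like cells in WT but 0.910 and 1.30 times in the other libraries.

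**Figure D3:**
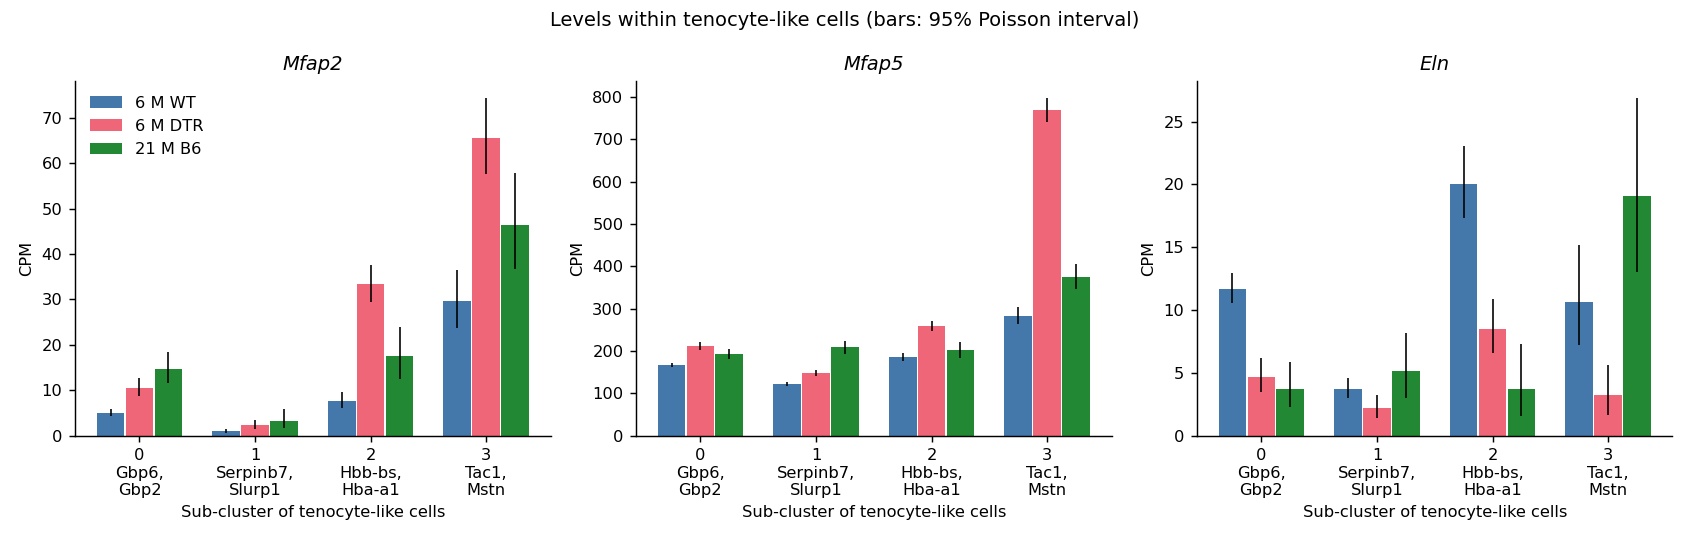
Levels of *Mfap2*, *Mfap5* and *Eln* in CPM (y axis, linear from 0, a separate scale for each gene) in the 4 large sub-clusters of tenocyte-like cells (x axis, named by 2 leading genes each) for the 3 libraries (colours), with bars at the summed level and error bars at the exact 95% Poisson interval. *Mfap2* and *Mfap5* are highest in the *Tac1*- and *Mstn*-led sub-cluster in every library, and DTR is above WT for both and below it for *Eln* in each of the 4.

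*Mfap4* encodes a fibrinogen-like protein that binds elastin and fibrillin. In tenocyte-like cells it stood at 7.97 CPM (7.33 to 8.65) in WT, 2.87 CPM (2.33 to 3.48) in DTR and 6.14 CPM (4.84 to 7.68) in B6. The DTR library was the low one, with ratios of 0.360 (0.288 to 0.445) to WT and, for B6 over DTR, 2.14 (1.57 to 2.91). Both ratios passed 2-fold in female cells (0.26 and 2.62) and missed it in male cells (0.59 and 1.35). DTR was below WT in the *Gbp6*-led (10.3, 2.19 and 5.52 CPM) and haemoglobin-led (21.1, 5.04 and 6.91 CPM) sub-clusters. The *Serpinb7*-led one held 0.875 CPM or less in each library. In the *Tac1*- and *Mstn*-led one DTR was not below WT, with 7.57 CPM (4.74 to 11.5), 9.68 CPM (6.78 to 13.4) and 18.4 CPM (12.5 to 26.2). Epitenon-like cells held 3.45 CPM (2.76 to 4.28), 2.19 CPM (1.65 to 2.84) and 7.19 CPM (6.38 to 8.06), where B6 was the high one at 2.08 times (1.63 to 2.69) the level of WT. That call held in female cells (2.26) but not in male cells (1.89), and over the settings tried the ratio ran from 1.73 to 2.59. These levels rest on 84, 56 and 289 UMIs in 50, 31 and 121 cells, and 44 of the 289 UMIs of B6 in a single cell. Mural-like cells held at most 1 *Mfap4* UMI per library and endothelial-like cells none. In endothelial-like cells a floor of 3 counts of the class total would be 2.03 to 2.36 CPM, which is not an exact interval.

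EMILIN-1 and EMILIN-2 are related glycoproteins with a shared elastin microfibril interface domain, and their transcripts differed in relative level between cell classes. Both were counted in epitenon-like and macrophage-like cells. Macrophage-like cells held *Emilin1* at 8.36, 12.3 and 6.15 CPM in WT, DTR and B6. In B6, epitenon-like cells held the largest part of both, with 51.0% of *Emilin1* and 77.9% of *Emilin2* UMIs. *Emilin1* was a tenocyte-like transcript in the young libraries, at 45.5 CPM (44.0 to 47.1) in WT and 28.9 CPM (27.1 to 30.7) in DTR, and stood at 16.2 CPM (14.1 to 18.6) in B6. The 3 intervals did not overlap, and B6 was the lowest, at 0.357 times (0.308 to 0.411) the level of WT, while DTR reached 0.634 times (0.591 to 0.681). In epitenon-like cells the levels were 15.8, 14.7 and 7.33 CPM, where DTR differed from WT by a ratio of 0.929 (0.803 to 1.07) and B6 by 0.463 (0.397 to 0.540). *Emilin1* was therefore past 2-fold lower in B6 in both fibroblast classes, each taken as a whole. The ratio of B6 to WT was 0.36 in female and 0.44 in male tenocyte-like cells, but 0.51 and 0.38 in epitenon-like cells, the female value missing 2-fold. Against DTR the epitenon-like ratio of B6 was 0.499 (0.427 to 0.582), just past 2-fold, with 0.53 in female and 0.49 in male cells. The ratio of B6 to WT lay under 1 in each of the 4 large tenocyte-like sub-clusters (0.283 to 0.635). Mural-like cells showed no such order, at 16.4, 13.3 and 16.5 CPM from 20, 23 and 9 UMIs.

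*Emilin2* was shared by epitenon-like and macrophage-like cells. The former held 114 CPM (110 to 118), 130.03 CPM (126 to 135) and 129 CPM (125 to 132) and the latter 113 CPM (107 to 120), 132 CPM (127 to 138) and 159 CPM (150 to 168) in WT, DTR and B6. The intervals of the classes overlapped in both young libraries, and macrophage-like cells were the higher in B6. After thinning, 16.3%, 18.0% and 19.9% of epitenon-like and 21.2%, 20.9% and 24.5% of macrophage-like cells held *Emilin2*, whereas tenocyte-like cells held it in 1.63%, 1.54% and 2.98%. The 8 macrophage markers summed to 21.9, 39.5 and 24.7 CPM in epitenon-like cells against 10065, 11006 and 12483 CPM in macrophage-like cells, so macrophage transcripts in epitenon-like cells were few. Tenocyte-like cells had 6.97, 8.85 and 14.2 CPM, and the ratio of B6 to WT of 2.04 (1.71 to 2.43) was past 2-fold in female cells (2.98) and short of it in male cells (1.34). Within the epitenon-like class *Emilin2* was highest in the *Col22a1*- and *Clic5*-led sub-cluster (185, 192 and 218 CPM), in which *Eln* was at 10.8, 10.6 and 11.5 CPM. Its *Emilin2* interval in DTR (175.8 to 209.7) overlapped those of the *Pi16*-led (167.2 to 183.5) and *Mal*-led (144.1 to 176.5) sub-clusters. In B6 its interval (201.4 to 235.4) overlapped that of the *Mal*-led one (173.1 to 206.2).

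Between DTR and WT, 3 of 7 tested genes were called in tenocyte-like cells, *Mfap2* upward and *Eln* and *Mfap4* downward, against 4.08% of 9368 tested genes (2.63% upward, 1.45% downward). Between B6 and WT there were 3 of 7, *Mfap2* and *Emilin2* upward and *Emilin1* downward, against 6.56% of all tested genes (3.92% upward, 2.64% downward), and between B6 and DTR only *Mfap4*, upward, against 9.59% (3.85% upward, 5.74% downward). In epitenon-like cells *Mfap4* upward and *Emilin1* downward were called for B6 against WT (2 of 7, against 4.52% of all tested genes, 1.79% upward and 2.73% downward), and *Eln* and *Mfap4* upward and *Emilin1* downward against DTR (3 of 7, against 7.34%, 3.57% upward and 3.77% downward). A gene under 5 CPM in 1 library of a pair was tested only through the other, where it was higher, a rule shared by all tested genes. This held for *Mfap2* against WT (4.86 CPM) and for *Eln* (4.48 CPM) and *Mfap4* (2.87 CPM) against DTR in tenocyte-like cells. It also held for *Mfap4* in epitenon-like cells (3.45 CPM in WT, 2.19 CPM in DTR). The direction of such calls followed from the rule. The genes did not move together. In tenocyte-like cells the median of their log2 ratios was 0.34 for DTR over WT and 0.51 for B6 over WT, beside 0.03 and -0.25 over all tested genes. In epitenon-like cells these medians were -0.08 and 0.18, beside -0.00 and -0.28. The comparisons share WT, so a like direction of *Mfap2* in both is not independent.

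**Figure D4:**
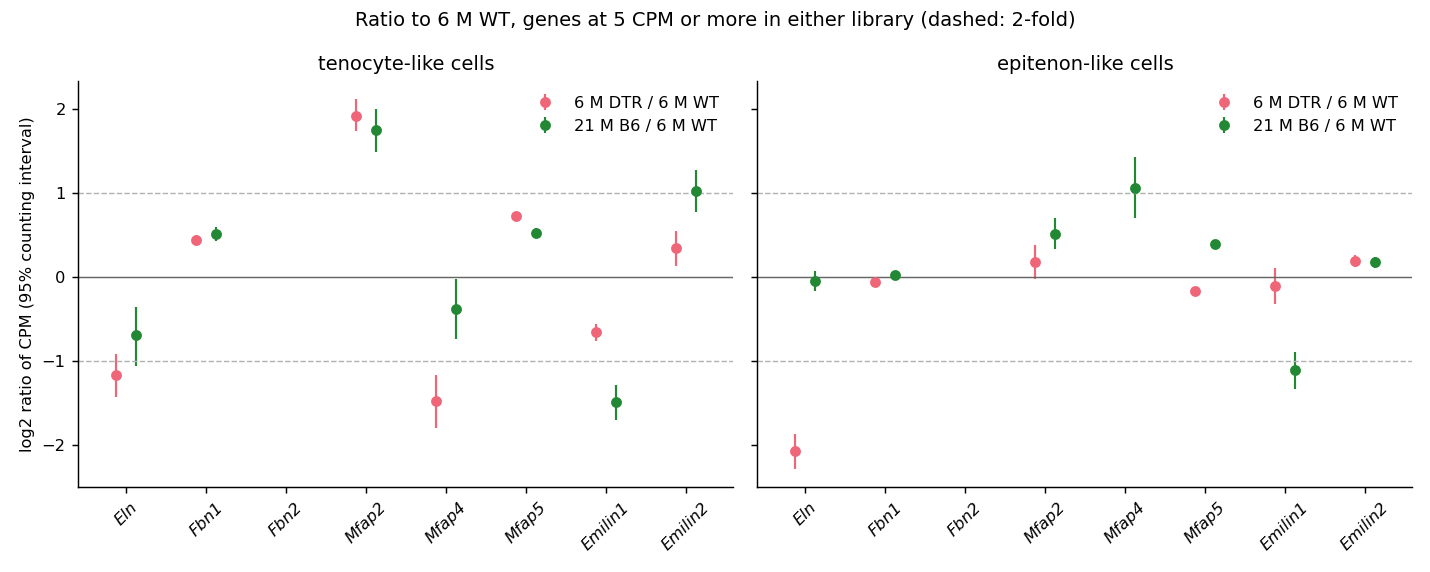
Log2 ratio of DTR and of B6 to WT (y axis, colours) for each gene with at least 5 CPM in either library (x axis) in tenocyte-like and epitenon-like cells, with points at the ratio, bars at the 95% counting interval and dashed lines at 2-fold. *Mfap2* lies above the upper line in tenocyte-like cells for both libraries, *Eln* of DTR lies below the lower line in both classes, and *Emilin1* of B6 lies below it in both.

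In mural-like cells, 1 of 6 tested genes was called between DTR and WT (*Emilin2*, 2.11, 0.728 to 7.41, an interval that includes 1), where 12.3% of all tested genes were called, 8.24% upward and 4.09% downward. *Mfap5* in these cells was 138 CPM (118 to 160), 243 CPM (220 to 267) and 73.4 CPM (52.5 to 100) in WT, DTR and B6, so DTR was the high library and B6 the low one, with a ratio of 1.76 (1.47 to 2.12) for DTR over WT and 0.302 (0.213 to 0.418) for B6 over DTR. The class held a *Higd1b*- and *Rgs5*-led pericyte-type sub-cluster of 79, 147 and 21 cells and a *Myh11*- and *Acta2*-led one of 67, 52 and 32 cells. *Mfap5* belonged to the first, at 284, 338 and 160 CPM against 9.3, 9.9 and 34.6 CPM in the second, and the part of their changing mix in the class ratios was not tested. Other markers moved in these cells too: the 5 erythroid markers summed to 69.7, 12416 and 34.9 CPM, and 4 of them were raised in the first sub-cluster, while the 8 endothelial markers summed to 53.3, 52.4 and 793 CPM. Their part in the *Mfap5* ratios was not tested. For *Eln* the first held 80.5 CPM (58.9 to 107), 94.9 CPM (78.5 to 114) and 23.7 CPM (6.47 to 60.8, from 4 UMIs). The second held 43.2 CPM (28.7 to 62.5), 35.8 CPM (21.2 to 56.5) and 53.2 CPM (32.5 to 82.1). Their intervals stood apart in DTR only. For B6 against WT 2 of 5 genes were called (*Fbn1*, 0.428, and *Mfap2*, 0.160, 0.00378 to 1.05, from 1 UMI) against 26% of all tested genes (8.2% upward, 17.8% downward), and for B6 against DTR 4 of 6, all downward, against 33.5% (8.98% upward, 24.5% downward). Of these 4, *Fbn1* (0.373, 0.228 to 0.582) and *Mfap5* rest on 22 and 40 UMIs in B6. *Mfap2* (0.152, 0.00367 to 0.944) rests on 1 UMI there and *Emilin2* (0.425, 0.0472 to 1.83, an interval that includes 1) on 2. The count ran from 2 to 6 over the settings tried. In endothelial-like cells 2 of 5 genes were called for DTR against WT, *Mfap5* (0.310, 0.128 to 0.683) and *Emilin2* (0.498, 0.131 to 1.65), against 9.43% of all tested genes (3.79% upward, 5.64% downward). Of the 26 *Mfap5* UMIs of WT behind the first, 16 lay in 1 cell, and the ratio ran from 0.266 to 1.05 over the settings tried, so its direction is not firm. None of 5 was called for B6 against WT (against 17.2% of all tested genes, 7.22% upward and 9.97% downward), and *Mfap5* alone for B6 against DTR (2.97, 1.32 to 7.29, against 16.6%, 8.25% upward and 8.37% downward). Between these vascular classes *Mfap5* and *Emilin1* were higher in mural-like than in endothelial-like cells (2 of 5 tested, none lower, against 11.6% of all tested genes higher and 9.25% lower).

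The share of a gene's transcripts supplied by each cell class differed between libraries, although epitenon-like cells supplied the largest part of *Eln*, *Fbn1*, *Mfap5* and *Emilin2* in all 3. Epitenon-like cells held 50.1% of the *Eln* UMIs of WT, 35.0% of those of DTR and 88.4% of those of B6, while mural-like cells held 19.8% and endothelial-like cells 16.3% in DTR. For *Emilin1*, tenocyte-like cells supplied 85.8% in WT, 61.3% in DTR and 34.8% in B6. The epitenon-like part of *Fbn1* was 72.4%, 79.2% and 93.9% and that of *Mfap5* 62.2%, 64.3% and 92.8%. Over all kept cells of a library *Fbn1* was 2.24 times and *Mfap5* 2.51 times higher in B6 than in WT, whereas within epitenon-like cells the ratios were 1.02 and 1.31 and within tenocyte-like cells 1.42 and 1.44. Epitenon-like cells made up 19.8%, 27.0% and 56.8% of kept cells, and how far that share reflects the tendon or its digestion cannot be told apart.

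**Figure D5:**
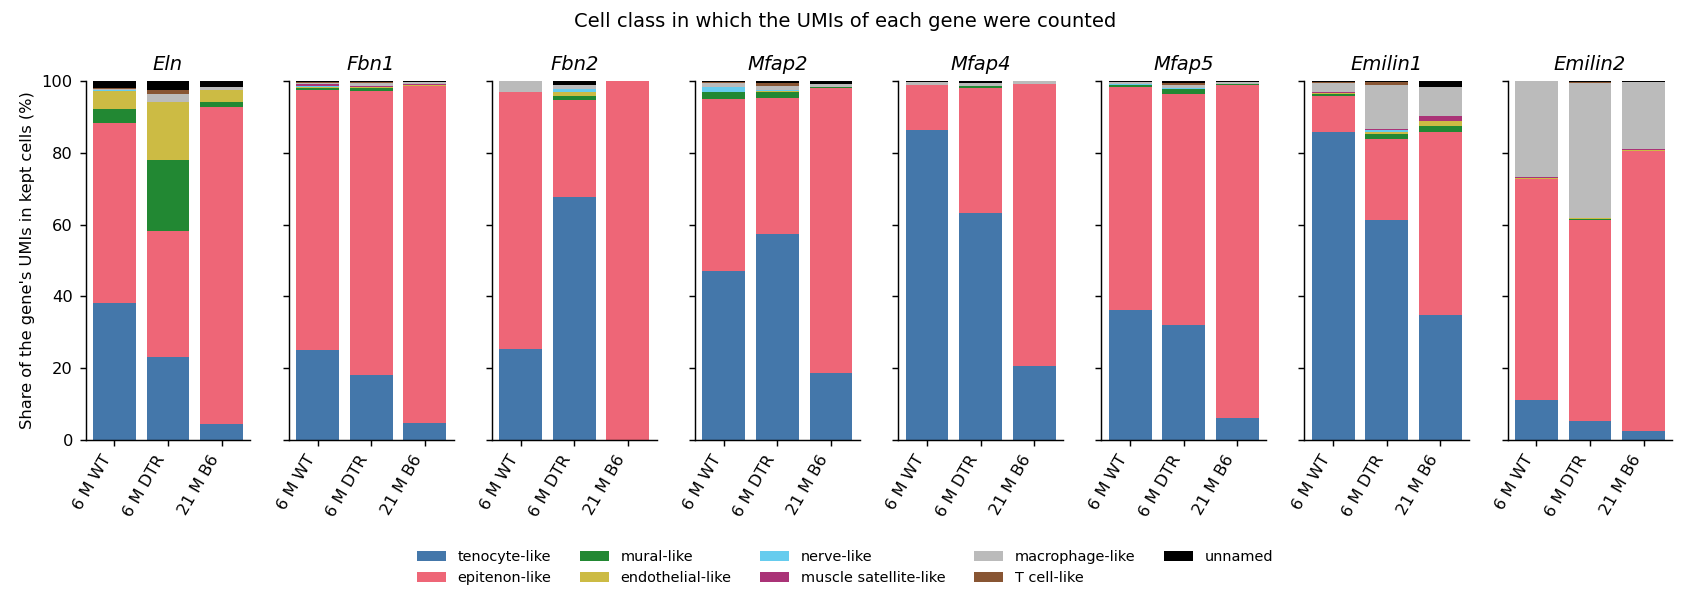
Share of each gene's UMIs in kept cells (y axis, %, stacked to 100) that was counted in each cell class (colours) in the 3 libraries (x axis), 1 panel per gene. The epitenon-like part of *Eln* is 50.1%, 35.0% and 88.4% in WT, DTR and B6, and the tenocyte-like part of *Emilin1* is 85.8%, 61.3% and 34.8%.

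Proteins that assemble elastic fibres with these genes were followed as a list of 25 genes: fibulins, latent TGF-beta binding proteins, lysyl oxidases, EMILIN relatives and ADAMTS-like proteins. Between epitenon-like and tenocyte-like cells, 6 of 19 tested list genes were higher in all 3 libraries (*Efemp1*, *Ltbp2*, *Ltbp4*, *Loxl1*, *Adamtsl4* and *Adamtsl5*) and 3 were lower (*Fbln1*, *Lox* and *Loxl4*), against 6.19% and 2.77% of all tested genes. *Lox*, for the lysyl oxidase that crosslinks elastin and collagen, stood at 1820, 1657 and 1562 CPM in tenocyte-like cells and at 137, 111 and 93.0 CPM in epitenon-like cells, the reverse of the *Eln* order. *Ltbp4*, which guides elastin onto microfibrils, stood at 227, 200 and 298 CPM against 987, 802 and 1101 CPM, the same order as *Eln*. In tenocyte-like cells of DTR against WT, 4 of 18 list genes were called upward (*Ltbp2*, *Loxl1*, *Adamtsl5* and *Fbln7*) and *Loxl4* downward (background 2.63% and 1.45%), with a median log2 ratio of 0.14 beside 0.03 over all tested genes. *Fbln7*, for fibulin-7, was at 4.81 CPM in WT, 74.5 CPM in DTR and 28.1 CPM in B6, a ratio of DTR to WT of 15.5 (13.9 to 17.4). *Loxl1*, for a lysyl oxidase tied to elastin, stood at 7.29, 21.1 and 30.1 CPM and *Ltbp2* at 22.0, 77.3 and 44.7 CPM. For B6 against WT the same class gave 5 of 19 upward, those of DTR and *Efemp1*, for fibulin-3, which was at 0.843, 1.48 and 8.4 CPM, and none downward (background 3.92% and 2.64%), with a median of 0.11 beside -0.25. *Fbln7* and *Efemp1* lay under 5 CPM in WT, so both were tested only through the library where they were higher. In epitenon-like cells *Fbln7* was called upward and *Fbln1* and *Loxl4* downward for DTR, and *Fbln5* and *Efemp1* upward for B6 against WT, of 19 tested in each (background 0.751% upward and 1.77% downward, and 1.79% and 2.73%). *Fbln5*, whose protein fibulin-5 tethers elastin to cells, stood there at 60.5, 86.5 and 126 CPM, which is not the order of *Eln*. Against DTR, B6 had 2 list genes called upward and 1 downward in tenocyte-like cells and 3 upward and 2 downward in epitenon-like cells, of 19 tested in each (background 3.85% and 5.74%, and 3.57% and 3.77%).

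Enzymes that can cut elastin formed a second list of 13 genes, 12 of them counted. In tenocyte-like cells of DTR against WT, 4 of 6 tested genes were called upward and none downward, against 2.63% of all tested genes upward and 1.45% downward, with a median log2 ratio of 1.10 beside 0.03. *Mmp2*, for a gelatinase that also cuts elastin, stood at 92.8 CPM in WT, 601 CPM in DTR and 299 CPM in B6, and *Ctsk*, for cathepsin K, at 192, 433 and 148 CPM. *Mmp12*, the macrophage elastase, was at 5.91, 12.0 and 10.4 CPM and *Ctss*, for cathepsin S, at 1.53, 6.19 and 2.83 CPM, both low in these cells, while macrophage markers there summed to 23.5, 39.4 and 30.5 CPM, whose part in both was not tested. *Ctss* reached 5 CPM in DTR only, so it was tested only through the library where it was higher. In B6 against WT only *Mmp2* of 5 was called, upward (background 3.92%), with a median of 0.07 beside -0.25. In epitenon-like cells, where *Eln* differed most, 1 of 5 was called between DTR and WT, *Mmp12* downward (14.1, 5.08 and 0.124 CPM, background 1.77%), and *Ctsk* lay just under 2-fold upward at 219, 437 and 157 CPM. In B6 against DTR *Mmp2*, *Ctss* and *Ctsk* were called downward in tenocyte-like cells (background 5.74%) and *Mmp12* and *Ctsk* in epitenon-like cells (3.77%). *Mmp14*, for a membrane-bound protease, was the 1 list gene of 5 called higher in epitenon-like than in tenocyte-like cells.

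Likeness of pattern was measured as Pearson's r of log2(CPM + 1) over 24 points, 8 classes in 3 libraries, against 10023 genes, and is a description, since points of a library share its depth and the classes were made from many of the same genes. *Eln* was most like *Meis2* (0.93), *Il6* (0.91) and *Pdgfd* (0.91), *Fbn1* most like *Fhl1* (0.94), *Hspb8* (0.92) and *Fstl1* (0.91), and *Mfap5* most like *Aspn* (0.94), *Tmem119* (0.92) and *Twist1* (0.92). *Mfap2* was nearest to *Thbs3* (0.87), *Aspn* (0.87) and its list partner *Fbln7* (0.86), and *Mfap4* was close to *C3* (0.91) and *Gm765* (0.90). For *Emilin2* the nearest were *Ftl1* (0.86), *Reps2* (0.85) and *Ptgs2* (0.84). *Emilin1* had no close match, the highest being *H13* (0.79), *Micu3* (0.78) and *Etfa* (0.78), and *Fbn2*, at 1.85 CPM or less, gave *Tcfl5* (0.77), *Wdr19* (0.75) and *Ano10* (0.71). Among the 8 genes themselves *Mfap2* and *Mfap5* were the most alike (0.83), whereas *Eln* and *Fbn1*, the core and the scaffold of one fibre, reached 0.36 and the EMILIN pair 0.11.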

How the data were processed

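Single cells of pooled FDL tendons were profiled in 3 libraries, 1 per group. The authors prepared the libraries with the 10x Genomics Chromium Single Cell 3 kit (version 3) and deposited raw UMI counts per gene and barcode, made by Cell Ranger 6.0.1 per the file headers, whereas the submitters' processing notes name 2.1.1. No genome build was named (not given in the sources used here), so no coordinates are printed. The WT, DTR and B6 libraries held 15536, 16099 and 12273 barcodes and 148149903, 123918145 and 92707026 UMIs. The study's filter of 1000 to 5000 detected genes and no more than 10% mitochondrial UMIs left 8357, 6554 and 4798 cells.

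Integration and clustering at a resolution of 0.1 used Seurat 5.3.0 (R 4.3.3, Matrix 1.6.5, SeuratObject 5.2.0), leaving the 8 genes, the partner list and the list of enzymes that can cut elastin out of the features. A cluster was named where at least 3 markers of a class were raised 2-fold and no other class led its 10 top genes. The vascular cluster, and the tenocyte-like and epitenon-like classes at a resolution of 0.2, were clustered again. Scrublet (scanpy 1.11.5) called 2, 7 and 1 doublets, too few to have worked, so doublets were kept and, in an alternative, the 6% of cells with the highest scores were left out. Counts were summed over the cells of a class and scaled to CPM, with exact Poisson intervals, exact binomial intervals for shares and intervals for ratios from the split of both counts (95%). Thinned shares used 2000 UMIs per cell. Sex was called female from *Xist* without Y-linked UMIs and male from Y-linked UMIs without *Xist*. Other steps ran in Python 3.11.15 (scipy 1.17.1, numpy 2.4.6, matplotlib 3.10.9, pandas 2.3.3), and edgeR 4.0.16 gave an alternative scaling by TMM.

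Named beside the 8 genes were list genes past 2-fold in epitenon-like or tenocyte-like cells (up to 8 per comparison), the 3 genes most like each gene among those with at least 20 CPM, and the markers; 1 such gene is not reported here. Members and lists were chosen with earlier results of these data known. The calculation was tested on simulated data. No p-value was computed. UMIs of a 3′ library are not levels per gene length, so levels were compared within a gene only.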

Additional observations from a re-analysis of the deposited data

Results flagged for a closer look

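The results below are ratios between libraries that passed 1.5-fold in opposite directions in different cell classes, each with a 95% counting interval that excluded 1. The differences between the classes were not tested, since there was 1 library per group.

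*Mfap5* differed in direction between DTR and WT. The ratio was 1.66 (1.61 to 1.70) in tenocyte-like cells and 1.76 (1.47 to 2.12) in mural-like cells, but 0.310 (0.128 to 0.683) in endothelial-like cells and 0.600 (0.398 to 0.897) in nerve-like cells. The endothelial-like value rests on 26 UMIs in WT, 16 of them in 1 cell, and 9 in DTR, and it turned to 1.05 at a mitochondrial limit of 5%, so its direction is not firm. The nerve-like value rests on 64 and 43 UMIs. Nerve-like cells also carried fibroblast transcripts: the 9 tenocyte markers summed there to 3111, 2340 and 121 CPM in WT, DTR and B6. The 9 epitenon markers summed to 1065, 581 and 680 CPM. Their part in the nerve-like *Mfap5* ratios was not tested. Between B6 and DTR the order of these classes was turned about, with *Mfap5* at 2.97 (1.32 to 7.29) in endothelial-like cells and 1.75 (1.15 to 2.68) in nerve-like cells and 0.302 (0.213 to 0.418) in mural-like cells. Of the 23 endothelial-like UMIs of B6, 11 lay in 1 cell, and the nerve-like ratio ran from 0.544 to 1.94 over the settings tried. Within mural-like cells *Mfap5* was 284, 338 and 160 CPM in the *Higd1b*- and *Rgs5*-led sub-cluster. It was 9.3, 9.9 and 34.6 CPM in the *Myh11*- and *Acta2*-led one, where B6 was thus not below DTR. The part of their changing mix in the mural-like ratios was not tested. Both comparisons use the DTR library, so they are not independent of each other.

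*Eln* of B6 against DTR was 4.08 (3.56 to 4.69) in epitenon-like cells and 0.567 (0.351 to 0.879) in mural-like and 0.596 (0.426 to 0.828) in endothelial-like cells. The low epitenon-like level of DTR (9.35 CPM) was therefore not shared by the vascular cells of the same library, where *Eln* stood at 77.8 and 75.0 CPM. Mural-like cells of B6 numbered 53, and their *Eln* value rests on 24 UMIs. Their sub-clusters did not share the direction. *Eln* was 94.9 CPM in DTR and 23.7 CPM in B6 (4 UMIs) in the *Higd1b*- and *Rgs5*-led one, of 147 and 21 cells. It was 35.8 and 53.2 CPM, with overlapping intervals, in the *Myh11*- and *Acta2*-led one, of 52 and 32 cells. The part of this mix in the mural-like ratio was not tested.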

How the results depend on the processing

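With 1 library per group the intervals cover counting error only, digestion time and sex mix differ between libraries, and vascular and nerve-like classes hold too few UMIs for firm ratios. No paired analysis was possible because each group is 1 library and the labels give no replicate numbers. Of the ratios called at 2-fold, 469 values under the alternatives stayed within the counting interval of the reported ratio, 112 moved outside it and 1 turned direction: *Mfap5* in endothelial-like cells, DTR over WT, had a log2 ratio of 0.072 (ratio 1.05) at a mitochondrial limit of 5%. The cause was not tested. Of ratios not called, 534 stayed and 177 moved. Turns of direction were not counted apart for these, and some did turn, such as *Mfap2* in tenocyte-like cells, B6 over DTR (0.885, and 2.33 in female cells).

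The count of genes called between DTR and WT in tenocyte-like cells (3) became 1 in male cells, 5 at 1.5-fold and 0 at a minimum of 20 CPM, where few of the genes are left. Between B6 and WT it went from 3 to 1 at 20 CPM in tenocyte-like cells, and in epitenon-like cells from 2 to 0 at 20 CPM and to 1 with the per-cell marker gate, in female cells, in male cells, without the highest doublet scores, without the cells highest in *Eln*, with TMM scaling and with a mean of per-cell CPM. For B6 against DTR the tenocyte-like count (1) was 0 at a mitochondrial limit of 5%, at resolution 0.3, without integration, without the highest doublet scores, without the *Tac1*- and *Mstn*-led sub-cluster, with a mean of per-cell CPM and at 20 CPM, 2 in female cells and with no minimum, and 3 at 1.5-fold; the epitenon-like count (3) was 1 at 20 CPM. The count of 4 genes called higher in epitenon-like than in tenocyte-like cells stayed within 1.5 times under all alternatives run. Among these genes, the *Eln* ratio of DTR fell short of 2-fold under at least 1 alternative. The count of 1 called for mural-like cells became 2 with no minimum. Genes with the same highest class in all 3 libraries numbered 2, and 4 with all features kept, with the gate, in male cells, without the highest doublet scores and with a mean of per-cell CPM, and 5 with TMM scaling. Genes with a larger thinned share in epitenon-like than in macrophage-like cells went from 4 to 2 when 2 UMIs were needed. Partner genes called in tenocyte-like cells for B6 against WT went from 5 to 3 at 20 CPM, elastase genes from 4 to 2 for DTR at 20 CPM and from 1 to 2 for B6 at a mitochondrial limit of 5% and with TMM scaling. Gene and class pairs with the same highest sub-cluster in all libraries went from 5 to 8 at a sub-cluster resolution of 0.1. The small sub-clusters led by macrophage and myofibre genes moved no count by over 1.5 times when left out.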

Other observations

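A part of the vascular cells, with 51, 43 and 79 cells in WT, DTR and B6, carried both endothelial and mural markers and was given no name. *Eln* stood there at 39.7, 24.3 and 24 CPM when pooled, below the levels of endothelial-like and mural-like cells in each library. Their sub-clusters were unlike, and that order did not hold in each. The *Tac1*- and *Coch*-led one raised 8 of 9 tenocyte markers against the other vascular cells. It held *Eln* at 62.4 CPM (40.0 to 92.9), 16.2 CPM and 18.6 CPM (7.49 to 38.4). The *Cyp1a1*-led one held 23.0, 37.4 and 26.4 CPM (16.6 to 40.0 in B6). In B6 both intervals overlapped that of mural-like cells. A further 30 endothelial-like cells led by the lymphatic genes *Ccl21a*, *Prox1* and *Flt4* held only 8, 6 and 1 *Eln* UMIs in 11, 15 and 4 cells, or 65.4 CPM (28.3 to 129), 48.0 CPM (17.6 to 104) and 19.2 CPM (0.486 to 107).

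Muscle satellite-like cells, the stem cells of muscle, held *Fbn1* at 193, 97.2 and 118 CPM in WT, DTR and B6 from 56, 89 and 99 cells, and *Mfap5* at 5.26, 18.3 and 11.2 CPM. No *Eln* UMI was counted in those of either young library. Nerve-like cells held *Mfap5* at 107, 64.4 and 113 CPM and *Fbn1* at 80.5, 41.9 and 36.2 CPM. Tenocyte markers summed there to 3111, 2340 and 121 CPM and epitenon markers to 1065, 581 and 680 CPM. The part of such fibroblast transcripts in the nerve-like levels was not tested.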
